A study of Mus musculus with 9 samples.

Results

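Amino acid transporters of the embryonic mouse lens were examined as 37 genes of 7 solute carrier families, Slc1, Slc3, Slc6, Slc7, Slc36, Slc38 and Slc43. A gene was a member if its symbol placed it in one of these families and it reached a value of 1 or more in 2 or more of the 9 libraries. These 37 were drawn from 22013 table entries, of which 15820 carried a symbol. Of 39 entries with a fitting symbol, *Slc6a4* (the serotonin carrier) and *Slc6a9* (a glycine carrier) missed this minimum. *Slc6a9* reached 2.3 in control replicate 2 and at most 0.8 elsewhere, while *Slc7a3* met it only through compound KO replicates 1 and 3. The families held 10 members of Slc38, 9 of Slc7, 7 of Slc6, 5 of Slc1, 3 of Slc43, 2 of Slc36 and *Slc3a2* alone of Slc3. Membership rests on the symbol, and *Slc6a8*, which carries creatine, and *Slc43a3*, which carries nucleobases, are known for other cargo.

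Whole lenses were taken at E16.5, and the RNA of 8 lenses was pooled in each library, with 3 libraries per genotype. Control lenses were Mafg+/-:Mafk+/-, compound KO lenses were Mafg-/-:Mafk+/- and double KO lenses were Mafg-/-:Mafk-/-. Controls therefore already lacked 1 copy of each gene, and no lens with all copies intact was compared. The alleles are germline knockouts, so every tissue of the embryo was without the same copies as the lens. Values are the authors' normalized CPM (counts of reads relative to the total of a library, scaled by 1 factor per library). Read depth is unknown, so the error given is the spread between libraries, and the labels do not say whether lenses of different libraries came from separate litters.

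Blood vessels do not enter the lens, and its cells take up amino acids from their surroundings through such carriers. Several Slc7 proteins are light chains that reach the plasma membrane only when joined to the heavy chain encoded by *Slc3a2* (CD98). Among them, the *Slc7a11* product exchanges glutamate for cystine, which supplies cysteine for glutathione, and the *Slc7a5* product brings in leucine and other large neutral amino acids that activate the growth kinase mTORC1. Mafg and Mafk are small Maf proteins, which pair with factors such as Nrf2 at antioxidant response elements.

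*Mafg* was at 123 ± 10.9 in control, 18.4 ± 7.35 in compound KO and 24.0 ± 2.55 in double KO lenses (mean ± SD, n = 3). *Mafk* was at 5.70 ± 0.557, 4.80 ± 0.500 and 0.300 ± 0.300 in the same order. Lens fiber markers were abundant in all libraries, but their sum over 8 of 10 listed genes was 6244 in compound KO replicate 1, against 15565 and 15891 in the other compound KO libraries, 17782 to 20588 in control and 14609 to 17084 in double KO lenses. The same library had the highest sums for neural retina, retinal pigment epithelium, mesenchyme, skeletal muscle, endothelium and macrophage markers. Its endothelium sum rested mostly on *Kdr*, at 83.2 there and 8.7 to 19.3 elsewhere. Of the 7 endothelium markers, 5 were above the control maximum in it, while *Tek* (11.6) and *Egfl7* (9.7) were the lowest of all 9 libraries. Compound KO replicate 1 was the highest of all 9 libraries for 14 transporters and the lowest for another 14. Fold changes and test counts with the compound KO group are therefore also given without it. Erythroid markers summed to 1804 to 2732 in double KO lenses, all above the 919 to 1242 in control lenses.

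In control lenses the transporter transcripts were dominated by the large neutral amino acid system. Levels between genes were compared as normalized CPM per kb of the canonical transcript (GENCODE vM39). On this scale *Slc7a5* led with 264 ± 10.7, followed by its heavy chain *Slc3a2* with 148 ± 19.4 (mean ± SD, n = 3). *Slc38a2*, a sodium-coupled carrier of small neutral amino acids, was next with 59.3 ± 1.71, ahead of *Slc7a8*, a second large neutral amino acid light chain, with 51.5 ± 2.6. *Slc38a10*, *Slc1a4* (a carrier of alanine, serine and cysteine) and *Slc7a6* (a light chain that exchanges cationic for neutral amino acids) followed with 26.5 ± 2.15, 22.8 ± 1.38 and 21.7 ± 1.37. The control libraries of *Slc1a4* and *Slc7a6* overlapped, as did those of the next pair, *Slc38a1* and *Slc38a4*, whereas the first 4 genes were ordered alike in every control library. Near the bottom stood *Slc1a2*, a glutamate carrier of nervous tissue, with 0.147 ± 0.0624.

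**Figure D1:**
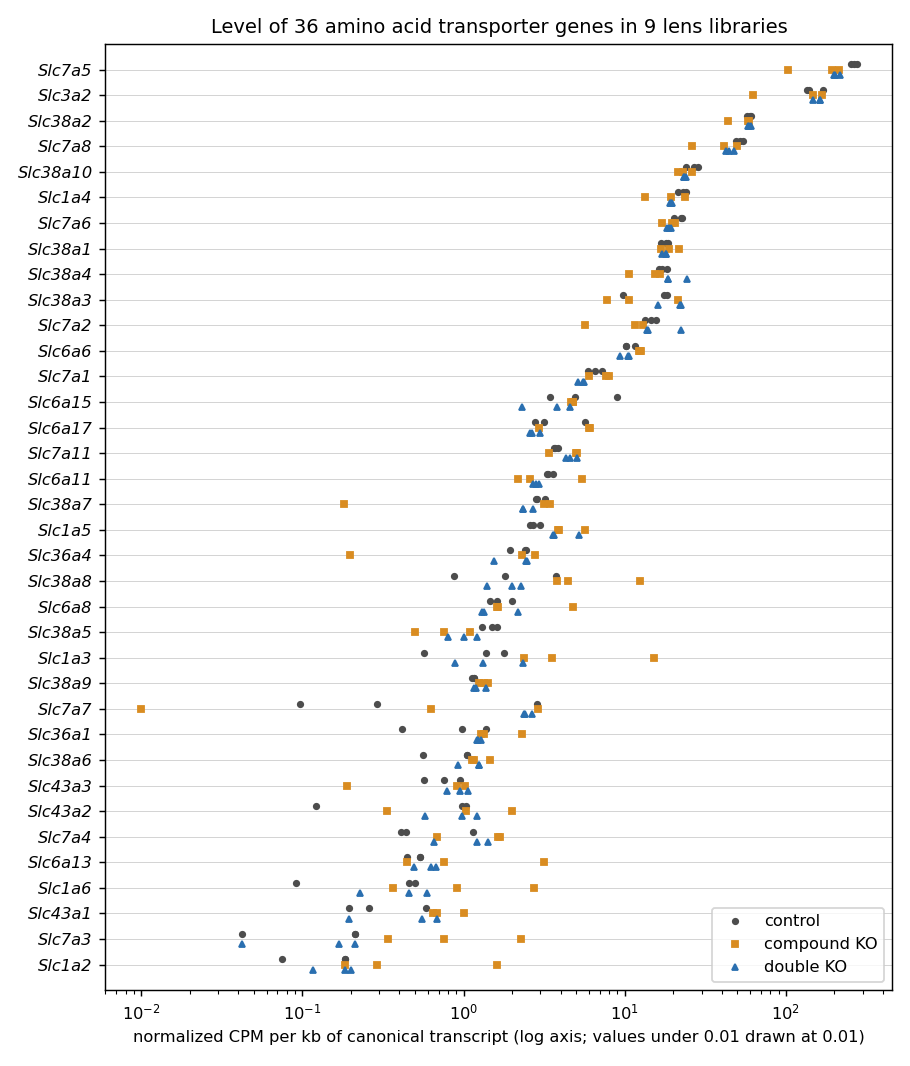
Level of 36 of the 37 transporters in each of the 9 libraries, as normalized CPM per kb of canonical transcript on a log axis, ordered by the control mean (circles, control; squares, compound KO; triangles, double KO). Compound KO replicate 1 lies far to the right of the rest for low genes such as *Slc1a3*, *Slc1a6* and *Slc38a8*. It lies far to the left for abundant genes such as *Slc7a5* (102 against 253 to 275 in control libraries) and *Slc3a2* (62.3 against 135 to 170). For these abundant genes the other libraries lie closer together.

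By family, Slc7 made up 50.9% of the summed control level per kb, Slc3a2 20.7%, Slc38 20.2%, Slc1 3.82%, Slc6 3.63%, Slc36 0.444% and Slc43 0.253%. The Slc7 sum was 355, 362 and 375 in control libraries, 294, 295 and 309 in double KO libraries, and 166, 282 and 312 in compound KO libraries. Every Mafg-null library was thus below every control library, and the lowest was compound KO replicate 1. Most of this sum was *Slc7a5*, with 253, 265 and 275 in control and 203, 198 and 215 in double KO libraries. Of the other Slc7 members tested, *Slc7a2*, *Slc7a4*, *Slc7a7* and *Slc7a11* had positive log2 fold changes in double KO relative to control lenses. Those of *Slc7a1*, *Slc7a6* and *Slc7a8* were negative, so the sum does not describe the whole family. The Slc38 sum was 145 ± 3.22 in control, 136 ± 11.4 in compound KO and 149 ± 7.14 in double KO lenses, and the sum over all 37 genes was 715 ± 10.2, 586 ± 131 and 659 ± 16.3.

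Promoter sequence was read from RefSeq (build GRCm38.p6, 250 bases before to 50 after a start site), where 25 of the 37 members matched. Windows were searched on both strands for TGACNNNGC, the core letters of the antioxidant response element, for TGAGTCA, an AP-1 type site, and for TGATGNAA, the C/EBP-ATF response element through which Atf4 acts on genes of amino acid supply. The letters TGACNNNGC were found in 7 of 25 members (28%), against 14% of 27025 genes with a window. TGAGTCA was found in 2 members (8%, against 5.95%) and TGATGNAA in 3 members (12%, against 4.51%). A stretch TGACTCA followed by GC would count as both of the first types, and no member window held one. The windows of *Slc7a11*, *Slc1a4*, *Slc7a1*, *Slc7a6* and *Slc6a11* are shown because their libraries did not overlap between double KO and control lenses, the first on the higher side and the others on the lower side, and each holds at least 1 of the motifs, in capitals, 5′ to 3′ along the gene. The *Slc7a11* window (chr3:50443564-50443863, minus strand) holds TGATGNAA in both orientations, beginning 66 and 47 bases before the start. That of *Slc1a4* (chr11:20332664-20332963, minus strand) holds it 4 bases before the start. In *Slc7a1* (chr5:148399855-148400154, minus strand) the AP-1 type site begins 123 bases and the TGACNNNGC letters 11 bases before the start, and in *Slc7a6* (chr8:106168604-106168903, plus strand) the TGACNNNGC letters begin 1 base before it. In *Slc6a11* (chr6:114130991-114131290, plus strand) they begin 219 bases before the start. Of the other members without overlap, *Slc38a4*, *Slc38a5*, *Slc38a7*, *Slc38a10* and *Slc7a8* had windows with none of the motifs, and *Slc7a5* and *Slc1a5* had no window. These are matches of letters, and binding was not measured in these data.
Slc7a11: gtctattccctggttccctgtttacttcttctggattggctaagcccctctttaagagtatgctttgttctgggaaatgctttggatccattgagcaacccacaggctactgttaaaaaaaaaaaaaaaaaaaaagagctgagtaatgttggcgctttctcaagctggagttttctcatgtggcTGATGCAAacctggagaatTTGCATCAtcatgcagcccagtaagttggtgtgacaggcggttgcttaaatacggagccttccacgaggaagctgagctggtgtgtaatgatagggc
Slc1a4: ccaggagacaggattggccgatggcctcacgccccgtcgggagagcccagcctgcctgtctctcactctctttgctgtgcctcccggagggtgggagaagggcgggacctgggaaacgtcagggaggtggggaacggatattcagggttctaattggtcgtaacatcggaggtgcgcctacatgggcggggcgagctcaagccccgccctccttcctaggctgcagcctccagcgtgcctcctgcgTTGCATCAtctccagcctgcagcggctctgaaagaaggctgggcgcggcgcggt
Slc7a1: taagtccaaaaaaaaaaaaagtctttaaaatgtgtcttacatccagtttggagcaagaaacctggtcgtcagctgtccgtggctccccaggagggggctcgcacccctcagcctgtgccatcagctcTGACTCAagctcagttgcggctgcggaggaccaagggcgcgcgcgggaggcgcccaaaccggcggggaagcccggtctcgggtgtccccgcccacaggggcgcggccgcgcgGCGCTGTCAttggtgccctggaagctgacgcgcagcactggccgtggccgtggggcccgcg
Slc7a6: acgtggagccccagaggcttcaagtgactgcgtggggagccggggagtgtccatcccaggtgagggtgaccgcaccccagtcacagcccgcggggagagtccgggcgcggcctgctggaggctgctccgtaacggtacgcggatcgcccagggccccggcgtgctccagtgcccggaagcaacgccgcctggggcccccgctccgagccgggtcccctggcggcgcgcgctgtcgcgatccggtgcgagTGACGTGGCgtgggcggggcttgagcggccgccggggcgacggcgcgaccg
Slc6a11: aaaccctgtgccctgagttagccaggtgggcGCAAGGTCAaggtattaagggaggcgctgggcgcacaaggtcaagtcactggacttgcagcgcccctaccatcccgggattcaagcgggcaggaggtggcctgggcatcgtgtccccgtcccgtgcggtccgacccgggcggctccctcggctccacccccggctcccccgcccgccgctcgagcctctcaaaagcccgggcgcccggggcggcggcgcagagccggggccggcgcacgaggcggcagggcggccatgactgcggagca

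Double KO lenses were compared with control lenses to ask which transporters differed when both genes were lost. No transporter passed the test (limma, adjusted p of at most 0.05 and at least 1.5-fold) among the 35 that could be tested, against 0.361% of all 14122 entries. At an unadjusted p of at most 0.05 with 1.5-fold the count was also 0, against 2.83%, and 32 of the 35 differed by less than 1.5-fold. Without a fold limit, 9 members had an unadjusted p of at most 0.05, 2 of them higher and 7 lower. The background was 9.97% of all entries, 4.79% higher and 5.18% lower. The count was 4 (9.06% of all entries) when libraries were scaled to equal totals, 2 (5.42%) in 1 fit of all 9 libraries and 4 (7.63%) without control replicate 3. It was 10 with upper quartile scaling (10%) and with the replicate number as a block (9.1%). The remaining alternatives gave 7 to 9 (8.4% to 10.2%). Libraries of the 2 genotypes did not overlap for 12 members (34.3%), against 15.8% of all entries. Of these, 3 were higher (background 7.78%) and 9 lower (background 8.04%) in double KO lenses. The median log2 fold change was 0.10 over the 35 members and 0.01 over all entries. Fewer cells of a type and less RNA per cell cannot be told apart in such bulk samples. Beside these counts, the fiber marker sums of double KO libraries all lay below, and the erythroid sums above, those of controls. By log2 fold change, 6 of the 8 fiber markers were lower and 2 higher, and only *Bfsp1*, *Dnase2b* and *Gja3* did not overlap. The largest difference was in *Bfsp1*, at 4539, 5520 and 4519 in control and 2604, 2682 and 3267 in double KO lenses. *Mip*, the largest part of the sum, overlapped, at 8879, 10197 and 9443 and at 7835, 8728 and 8987. Skeletal muscle markers summed to 17.0 to 69.2 in double KO against 2.2 to 4.1 in control lenses, and mesenchyme markers to 198 to 367 against 184 to 218. Most of the control mesenchyme sum was *Pdgfra*, at 156.3, 172.2 and 163.7 in control and 139.7, 173.4 and 149.4 in double KO lenses. By log2 fold change it was lower and the other 7 of the 8 markers higher. *Col1a1*, for example, was at 4.6, 4.0 and 9.6 in control and 59.6, 5.9 and 31.0 in double KO lenses. The part of these other cells in the transporter values was not tested.

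**Figure D2:**
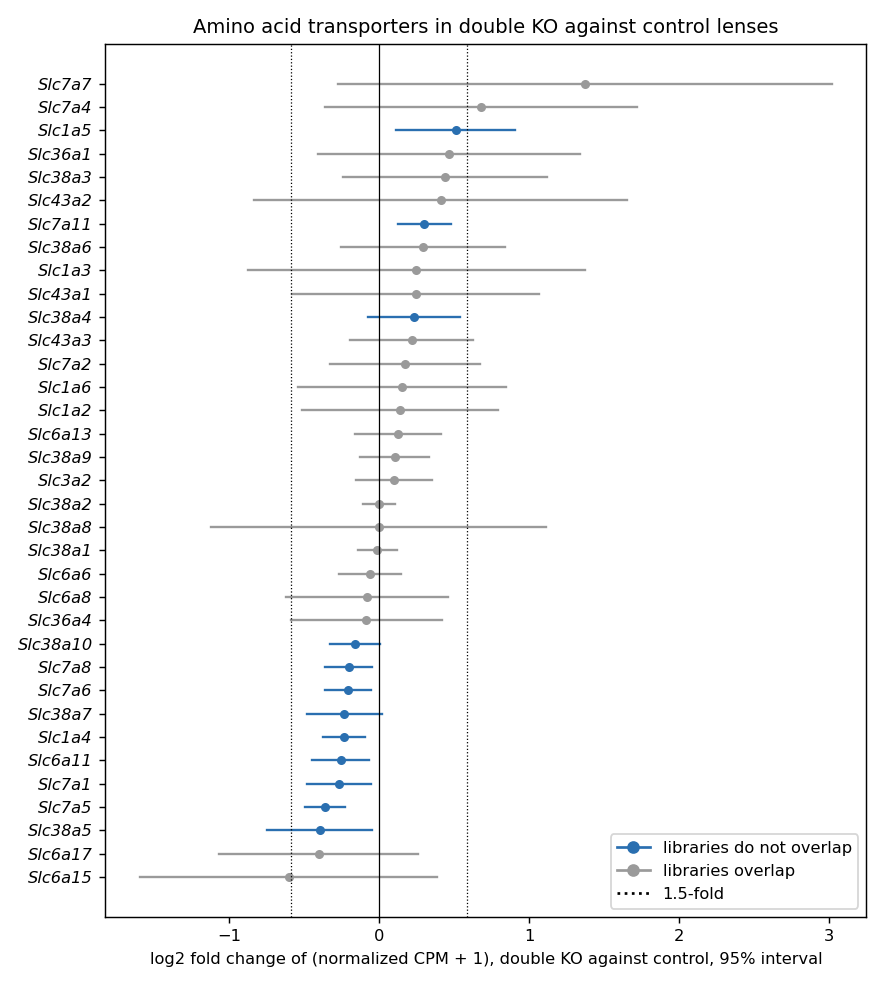
Log2 fold change of normalized CPM plus 1 in double KO relative to control lenses for the 35 tested transporters (points, with 95% intervals as lines), blue where the libraries of the 2 genotypes do not overlap. Of the 12 blue genes, 9 lie to the left of 0 and all 12 lie inside the dotted lines at 1.5-fold.

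Among the light chains, *Slc7a5* (GRCm39 chr8:122607884-122634433, minus strand) had the smallest p. Its values were 890.6, 932.3 and 966.0 in control, 713.7, 697.5 and 757.0 in double KO and 359.7, 681.0 and 752.0 in compound KO lenses. All 6 Mafg-null libraries were below all 3 control libraries. The log2 fold change was -0.36 (SE 0.05, 95% interval -0.50 to -0.23, unadjusted p = 0.000658, limma adjusted p = 0.104) in double KO relative to control lenses. Its adjusted p ranged from 0.0872 to 1.0 over the alternatives, with the log2 fold change between -0.40 and -0.29.

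*Slc7a8* (chr14:54959630-55019649) and *Slc7a6* (chr8:106895139-106925346) also had lower values without overlap. *Slc7a8* was at 215.4, 202.1 and 223.5 in control and 184.1, 175.9 and 197.4 in double KO lenses (log2 fold change -0.20, SE 0.06, unadjusted p = 0.0209, adjusted p = 0.383). For *Slc7a6* the values were 84.7, 84.3 and 75.6 in control and 70.7, 68.3 and 72.6 in double KO lenses (log2 fold change -0.20, SE 0.06, unadjusted p = 0.0178, adjusted p = 0.372). In compound KO lenses both genes overlapped the controls, with 107.8, 171.1 and 206.8 for *Slc7a8* and 64.2, 73.3 and 76.8 for *Slc7a6*.

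The cystine and glutamate exchanger *Slc7a11* (chr3:49846975-50398070, minus strand), whose promoter with its pair of TGATGNAA letters is shown above, was the light chain whose double KO libraries all lay above the controls. It was at 35.6, 34.2 and 33.8 in control and 42.0, 46.5 and 40.0 in double KO lenses. The log2 fold change was 0.30 (SE 0.07, unadjusted p = 0.00634, adjusted p = 0.268). Compound KO lenses had 31.4, 46.1 and 46.7, so that replicate 1 was the lowest of the 9 libraries and the other 2 were among the highest. The log2 fold change between compound KO and control lenses was 0.23 (SE 0.17, adjusted p = 0.527), and 0.42 (SE 0.05, unadjusted p = 0.000913, adjusted p = 0.154) without that library.

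The heavy chain *Slc3a2* (chr19:8684245-8701108) had no such separation between genotypes. Its values were 435.5, 353.9 and 345.8 in control, 377.8, 417.2 and 417.0 in double KO and 159.3, 376.6 and 427.4 in compound KO lenses. The groups overlapped, with a log2 fold change of 0.10 (95% interval -0.15 to 0.36, adjusted p = 0.809) in double KO relative to control lenses. Per kb, the summed light chains *Slc7a5*, *Slc7a6*, *Slc7a7*, *Slc7a8* and *Slc7a11* stood at 1.96, 2.46 and 2.6 times *Slc3a2* in control libraries and at 1.85, 1.63 and 1.77 times in double KO libraries. In compound KO libraries this ratio was 2.40, 1.78 and 1.73, where replicate 1 lay within the control range.

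*Slc7a11* made up 1.15%, 1.09% and 1.04% of the light chain sum in control libraries. It made up 2.28%, 1.91% and 1.75% in compound KO and 1.67%, 1.89% and 1.5% in double KO libraries, so that all 6 Mafg-null libraries were above the controls. The light chain sum, mostly *Slc7a5*, was lower in these 6, at 149 to 289 per kb against 334 to 352 in control libraries. The highest share was in compound KO replicate 1, whose *Slc7a11* value (31.4) was the lowest of all 9, so the shares do not show a rise of *Slc7a11* there. The share of *Slc7a5* was 75.7% to 77.9% in control, 68.5% to 73.9% in compound KO and 74.3% to 74.5% in double KO libraries. These shares are descriptions with no test, and they use the same values as the fold changes.

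**Figure D3:**
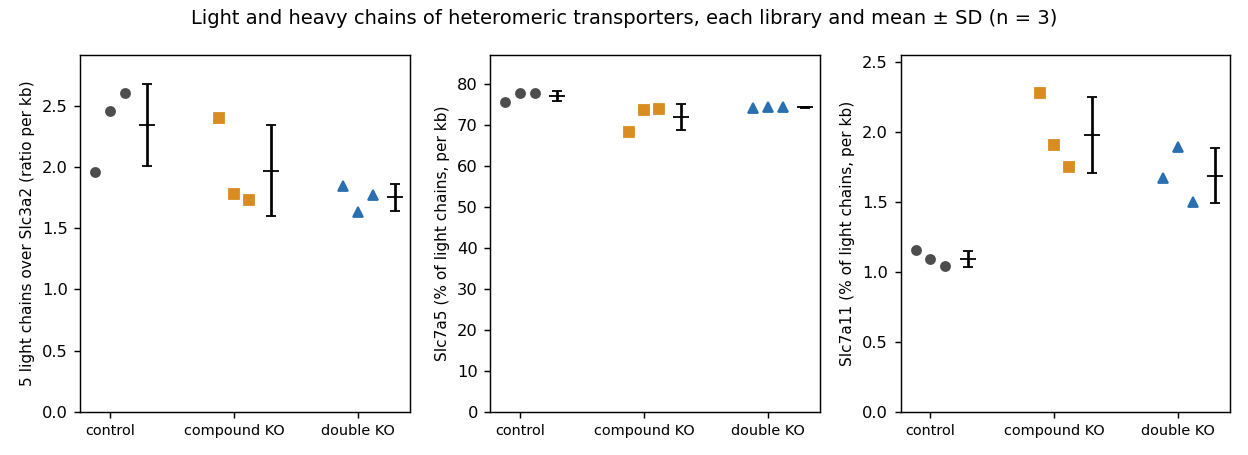
Ratio of 5 light chains to *Slc3a2* (left), and the shares of *Slc7a5* (middle) and *Slc7a11* (right) in the light chain sum, all from values per kb, for each library with the mean ± SD (n = 3). The *Slc7a11* share is 1.04% to 1.15% in control libraries and 1.5% to 2.28% in the 6 Mafg-null libraries, where the light chain sum is also lower (149 to 289 against 334 to 352 per kb).

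The last light chain, *Slc7a7*, was low and uneven, with 5.9, 0.6 and 0.2 in control, 1.3, 6.0 and 0.0 in compound KO and 4.9, 5.5 and 5.0 in double KO lenses. Control replicate 1 lay above every double KO library and the other 2 controls far below. The log2 fold change in double KO relative to control lenses was 1.37 (SE 0.66, adjusted p = 0.581), and without control replicate 1 it was 2.14 with an adjusted p of 0.0438. That single control library therefore decides whether *Slc7a7* is called.

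Of the cationic amino acid carriers, which bring in arginine and lysine, *Slc7a1* (chr5:148264220-148336848) was at 43.2, 52.7 and 48.1 in control and 41.0, 40.1 and 37.7 in double KO lenses. The latter were all below the controls (log2 fold change -0.27, SE 0.09, unadjusted p = 0.0223, adjusted p = 0.394). Compound KO lenses had 58.6, 44.0 and 56.1, all above the double KO libraries, and the log2 fold change of double KO against compound KO was -0.40 (SE 0.13, unadjusted p = 0.0218, adjusted p = 0.665), and -0.32 (unadjusted p = 0.0482) without compound KO replicate 1. *Slc7a2*, a related carrier, was at 114.5, 105.1 and 123.9 in control, 44.9, 91.3 and 103.2 in compound KO and 111.0, 176.9 and 109.1 in double KO lenses. The compound KO libraries of *Slc7a2* lay below both other genotypes, with a log2 fold change of -0.60 (SE 0.32, adjusted p = 0.482) against control, which was -0.23 (SE 0.10, adjusted p = 0.455) without compound KO replicate 1. *Slc7a4*, at 2.8, 7.8 and 3.0 in control lenses, was at 4.7, 11.2 and 11.5 in compound KO and 8.3, 4.5 and 9.7 in double KO lenses.

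**Figure D4:**
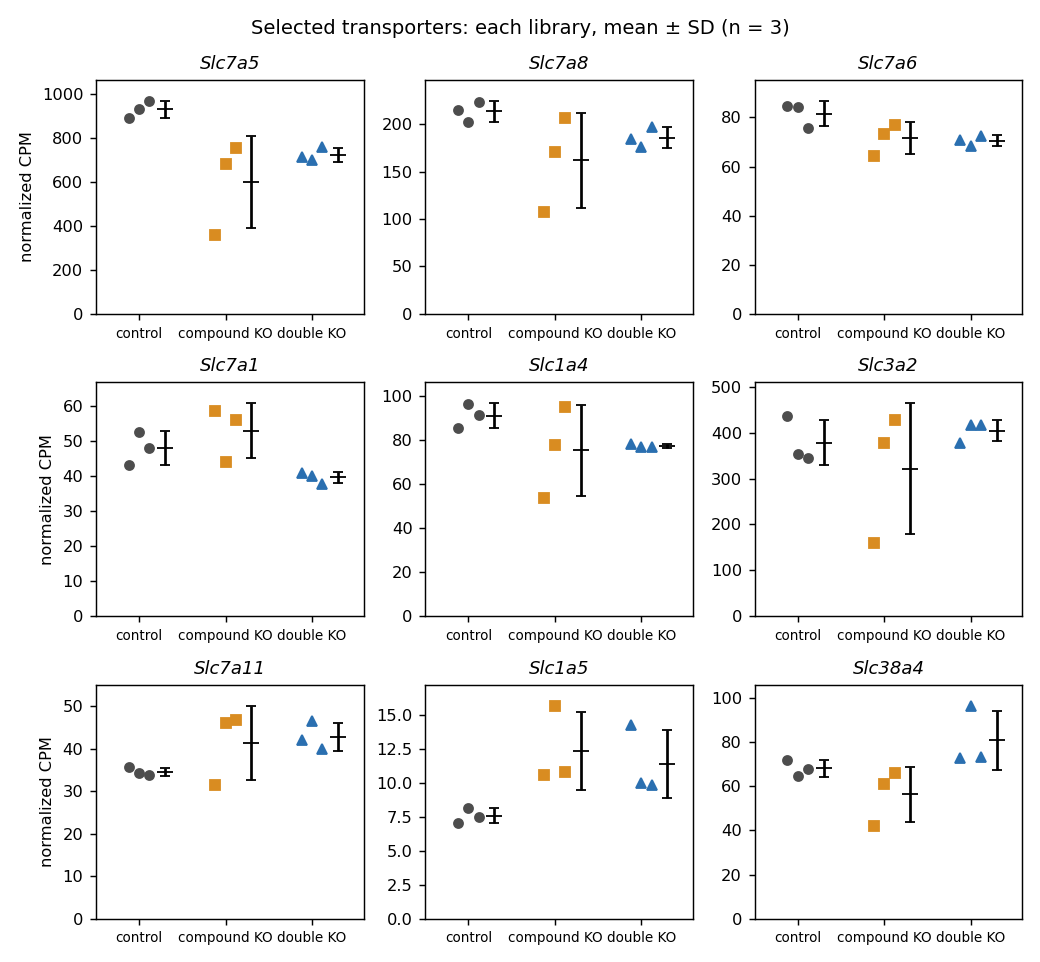
Normalized CPM of 9 transporters in each library, with the mean ± SD of each genotype (n = 3) drawn to the right of its points and all axes starting at 0. *Slc7a5*, *Slc7a8*, *Slc7a6*, *Slc7a1* and *Slc1a4* have double KO libraries below the controls, *Slc7a11*, *Slc1a5* and *Slc38a4* above them, and *Slc3a2* overlaps.

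The neutral amino acid exchangers of the Slc1 family had double KO values on opposite sides of the controls. *Slc1a4* (chr11:20252180-20282774) was at 85.3, 96.3 and 91.2 in control and 78.1, 76.6 and 76.8 in double KO lenses, without overlap (log2 fold change -0.23, SE 0.06, unadjusted p = 0.00712, adjusted p = 0.275). *Slc1a5* (chr7:16515265-16532731), known as a glutamine carrier, was at 7.1, 8.2 and 7.5 in control, 10.6, 15.7 and 10.8 in compound KO and 14.3, 10 and 9.9 in double KO lenses. All 6 Mafg-null libraries of *Slc1a5* were above all controls. The log2 fold change was 0.51 (SE 0.16, unadjusted p = 0.0204, adjusted p = 0.383) for double KO and 0.62 (SE 0.18, unadjusted p = 0.0160, adjusted p = 0.481) for compound KO lenses, and 0.71 (unadjusted p = 0.0137, adjusted p = 0.329) for the latter without replicate 1. These comparisons share their control libraries.

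In the Slc38 family, *Slc38a2* was at 283.9, 280.9 and 268.8 in control and 271.1, 285.2 and 276.5 in double KO lenses, with a 95% interval of the log2 fold change from -0.11 to 0.10. *Slc38a1*, a carrier of the same kind, had an interval from -0.14 to 0.12. Both intervals lie inside 1.5-fold. *Slc38a4* (chr15:96892693-96958593) was at 72.0, 64.5 and 67.8 in control, 42.1, 61.0 and 65.8 in compound KO and 72.9, 96.3 and 73.3 in double KO lenses. The latter were above all others (log2 fold change 0.23, SE 0.12, adjusted p = 0.618 against control, and 0.53, SE 0.21, adjusted p = 0.665 against compound KO). The first was 0.10 without double KO replicate 2, and the second 0.33 (adjusted p = 0.830) without compound KO replicate 1. *Slc38a5*, known for glutamine transport, was low and was at 2.6, 3.2 and 3.0 in control, 1.0, 1.5 and 2.2 in compound KO and 2.0, 2.4 and 1.6 in double KO lenses. It was lower in all 6 Mafg-null libraries, with a log2 fold change of -0.40 (SE 0.14, unadjusted p = 0.0330, adjusted p = 0.444) in double KO and -0.64 (SE 0.21, unadjusted p = 0.0244, adjusted p = 0.481) in compound KO lenses, the latter -0.47 (unadjusted p = 0.0383) without replicate 1. *Slc38a10*, at 121 ± 9.84 in control and 108 ± 1.42 in double KO lenses (n = 3), and *Slc38a7*, a lysosomal glutamine carrier at 9.80 ± 0.700 and 8.2 ± 0.693, also did not overlap. Their log2 fold changes were -0.16 (unadjusted p = 0.0584, adjusted p = 0.533) and -0.23 (unadjusted p = 0.0643, adjusted p = 0.539). Both 95% intervals include 0, and the nearest *Slc38a10* libraries were at 110.4 (control) and 109.7 (double KO). *Slc38a9*, the arginine sensor of the lysosome, was at 10.2 ± 0.208 in control, 11.9 ± 0.700 in compound KO and 11.1 ± 1.04 in double KO lenses.

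Over control and all 6 Mafg-null libraries, 3 members separated the genotypes completely, *Slc1a5* on the higher side and *Slc7a5* and *Slc38a5* on the lower side. The background was 6.95% of 14578 entries, with 2.68% higher and 4.27% lower.

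The Slc6 family holds carriers of GABA, taurine and neutral amino acids. *Slc6a11*, a GABA carrier, was at 13.7, 13.8 and 14.9 in control and 11.2, 12.2 and 11.6 in double KO lenses, without overlap (log2 fold change -0.26, SE 0.08, unadjusted p = 0.0178, adjusted p = 0.372). The taurine carrier *Slc6a6* (chr6:91660573-91736047), the highest member of its family per kb, was at 72.1, 62.8 and 62.7 in control, 75.9, 77.8 and 77.1 in compound KO and 66.1, 58.1 and 65.2 in double KO lenses. Its compound KO libraries were above both other genotypes, with a log2 fold change of 0.22 (SE 0.08, unadjusted p = 0.0360, adjusted p = 0.481) against control, while double KO was below compound KO by a log2 fold change of -0.28 (SE 0.08, unadjusted p = 0.0128, adjusted p = 0.665). Without compound KO replicate 1 these were 0.23 and -0.29. The neutral amino acid carrier *Slc6a15* was spread among controls, with 18.4, 33.8 and 13.0, against 18, 17.5 and 18.1 in compound KO and 17.2, 8.7 and 14.3 in double KO lenses. *Slc6a17*, found on synaptic vesicles, was at 35.9, 17.5 and 19.9 in control, 38.8, 18.7 and 38.3 in compound KO and 16.9, 16.4 and 18.8 in double KO lenses.

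Compound KO lenses were compared with control lenses to ask which transporters differed when *Mafg* alone was fully lost. No member passed the adjusted test among 37 tested, and no entry did among all 14348 (limma, background 0%). At an unadjusted p of at most 0.05 with 1.5-fold, 6 members were counted, against 5.34% of all entries. Those higher were *Slc1a3*, *Slc1a5*, *Slc38a8*, *Slc43a1* and *Slc7a3* (background 3.81%), and *Slc38a5* was lower (background 1.53%). *Slc7a3* is 1 of 2 members that met the minimum through compound KO libraries alone, so it had to be high there, and 5 were counted among the other 35 members. Without compound KO replicate 1 the count was 2, namely *Slc1a5* and *Slc7a4*, against 3.68% of all entries. It was 3, 2 and 2 without control replicates 1, 2 and 3 (4.23%, 2.68% and 3.09% of all entries) and 3 without compound KO replicate 2 (5.69%). Libraries did not overlap for 12 members (32.4%), against 23.9% of all entries, 9 of them higher (background 12.2%) and 3 lower (background 11.7%), and for 10 of the 35 (28.6%) when those 2 members were left out. With libraries scaled to equal totals the median log2 fold change of all entries moved from 0.02 to 0.24, and 5 members were counted, all higher.

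Several members on the higher side are carriers known from nervous tissue, and their highest values were in 1 library. *Slc1a3*, the glutamate carrier of retinal glia, was at 7.5, 2.4 and 5.8 in control, 64.1, 14.8 and 9.9 in compound KO and 9.8, 3.7 and 5.5 in double KO lenses. *Slc38a8*, known from the retina, was at 9.9, 2.3 and 4.8 in control, 32.9, 10.1 and 11.7 in compound KO and 5.3, 3.7 and 6.0 in double KO lenses. For both genes the compound KO libraries were above all control libraries, and replicate 1 was by far the highest. The log2 fold changes were 1.94 (SE 0.74, unadjusted p = 0.0418) and 1.51 (SE 0.60, unadjusted p = 0.0490), both with an adjusted p of 0.481, and without replicate 1 they were 1.17 (unadjusted p = 0.0533) and 1.0 (unadjusted p = 0.123).

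The glutamate carriers *Slc1a2* and *Slc1a6* had 19.3, 3.5 and 2.2 and 6.0, 2.0 and 0.8 in compound KO libraries, against control maxima of 2.2 and 1.1. *Slc7a3*, a cationic carrier, had 5.4, 0.8 and 1.8 in compound KO against 0.5, 0.1 and 0.5 in control lenses and at most 0.5 in double KO lenses. *Slc43a1*, a large neutral amino acid carrier, had 3.1, 2.0 and 2.1 against 1.8, 0.6 and 0.8 (log2 fold change 0.75, SE 0.27, unadjusted p = 0.0323, adjusted p = 0.481), and its log2 fold change was 0.60 (unadjusted p = 0.0842) without replicate 1.

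The 8 neural retina markers summed to 24.3 to 64.2 in control, 556, 144 and 73.9 in compound KO replicates 1 to 3, and 25.0 to 93.6 in double KO lenses. All 8 were above the control maximum in compound KO replicates 1 and 2, and 3 of 8 in replicate 3. No marker of this list was at 0 in all control libraries, and the defining photoreceptor gene *Crx* was at 0 in control replicate 2 and double KO replicate 2. The same 2 libraries had the lowest neural retina sums and the lowest *Slc1a3* and *Slc38a8* values of all 9. Pigment epithelium markers summed to 685 in compound KO replicate 1 against 3.3 to 19.6 in control lenses, and mesenchyme markers to 2294 against 184 to 218. *Pdgfra*, which made up most of the control mesenchyme sum, was at 72.0 in that library against 156.3 to 172.2 in control lenses. The part of retinal and other non-lens RNA in these transporter values was not tested.

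**Figure D5:**
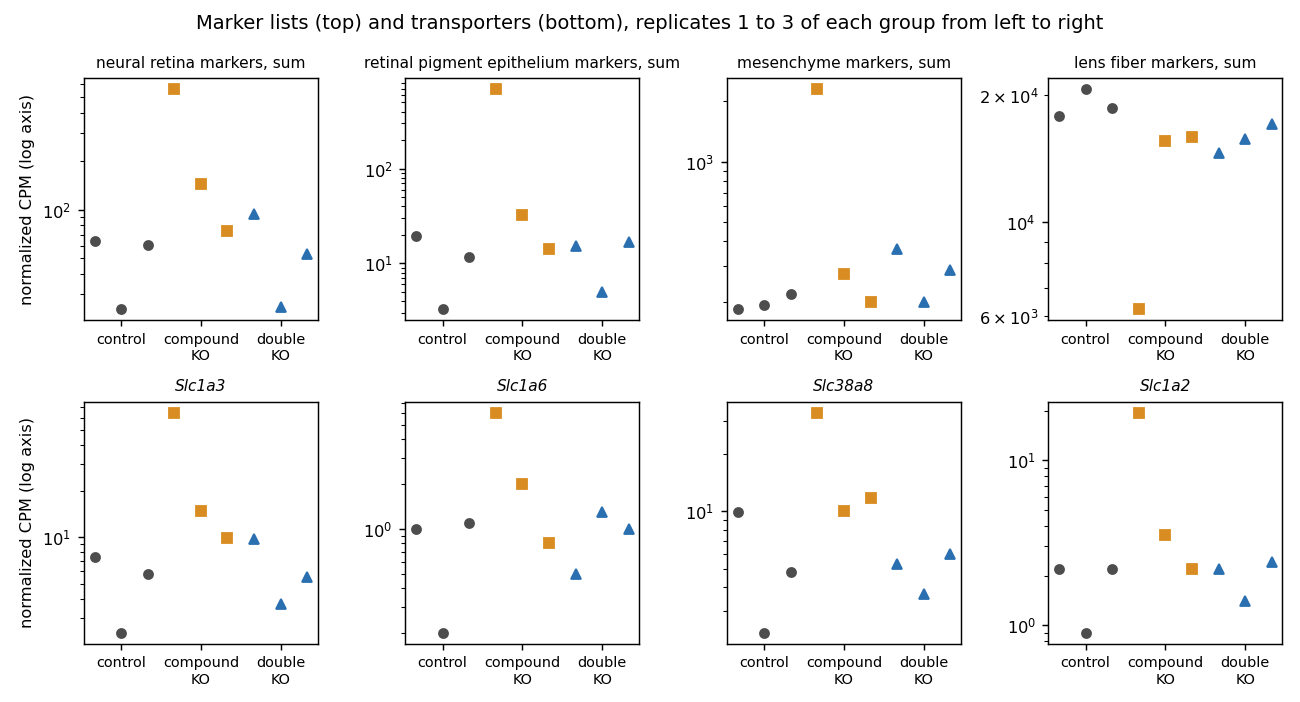
Summed normalized CPM of 4 marker lists (top) and normalized CPM of *Slc1a3*, *Slc1a6*, *Slc38a8* and *Slc1a2* (bottom) in each library, on log axes with replicates 1 to 3 from left to right. Compound KO replicate 1 has the highest neural retina sum (556) and the lowest fiber sum (6244), and it is the highest library for all 4 transporters.

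On the lower side, *Slc7a5* in compound KO lenses was below all controls with a log2 fold change of -0.71 (SE 0.29, unadjusted p = 0.0531, adjusted p = 0.481), and -0.38 (SE 0.07, unadjusted p = 0.00321, adjusted p = 0.234) without replicate 1. The value stands beside -0.36 for double KO lenses, which were compared with the same controls. *Slc3a2* had a log2 fold change of -0.35 (SE 0.39, adjusted p = 0.660) with all compound KO libraries. Its sign turned to 0.09 without replicate 1.

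Double KO lenses were compared with compound KO lenses to ask what the loss of the remaining *Mafk* copy added. None of 37 members passed the adjusted test, against 0.0139% of 14402 entries. At an unadjusted p of at most 0.05 with 1.5-fold, 3 members were lower in double KO lenses, against 2.2% of all entries on that side and 3.06% in either direction. They were *Slc38a8* (log2 fold change -1.51, SE 0.46, unadjusted p = 0.0180), *Slc6a17* (-0.77, SE 0.29, unadjusted p = 0.0408) and *Slc7a3*, each with an adjusted p of 0.665. *Slc7a3* had met the minimum through compound KO libraries alone, and without such members 2 of 35 were counted. Without compound KO replicate 1, *Slc38a8* alone was counted (-1.0, unadjusted p = 0.00626), against 2.25% of all entries, and *Slc6a17* was at -0.60 (unadjusted p = 0.116). The count was 5 without compound KO replicate 2 or 3 (3.59% and 7.98% of all entries), 0 without double KO replicate 2 (1.77%) and 1 without double KO replicate 3 (2.23%). Libraries did not overlap for 8 members (21.6%), against 15.6% of all entries. Leaving out members that met the minimum through compound KO libraries alone, the count was 7 of 35 (20.0%). *Slc7a5* had a log2 fold change of 0.34 (SE 0.29, adjusted p = 0.678), and 0.01 (SE 0.07) without compound KO replicate 1.

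Some members varied widely within a genotype, and *Slc38a7*, *Slc36a4* and *Slc6a13* did so by at least 4-fold because of 1 library. *Slc38a7* was at 0.6 in compound KO replicate 1 and at 11.5 and 10.5 in the other 2. *Slc36a4*, an amino acid carrier, was at 1.3 in compound KO replicate 3 and at 15.2 and 18.2 in the other 2. All control and double KO libraries of *Slc38a7* were at 7.8 or more, and those of *Slc36a4* at 10.1 or more. *Slc6a13*, a GABA carrier, was at 7.0 in compound KO replicate 2 and between 1.0 and 1.7 in the other 8 libraries. *Slc43a2*, a large neutral amino acid carrier, ranged from 0.4 to 3.4 in control and from 1.1 to 6.6 in compound KO lenses. The lysosomal carrier *Slc36a1* was at 2.2, 5.2 and 7.3 in control, 12.2, 7.1 and 6.8 in compound KO and 6.8, 6.5 and 6.4 in double KO lenses, so its controls alone were widely spread. *Slc38a3*, a glutamine carrier, was at 34.8, 62.0 and 65.3 in control, 38.1, 75.8 and 27.6 in compound KO and 57.4, 79.8 and 78.2 in double KO lenses, with overlap throughout. *Slc6a8* was at 19.1 in compound KO replicate 1 and between 5.2 and 8.7 elsewhere. The remaining *Slc38a6* and *Slc43a3* were at 4.4 or less in all libraries.

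Genes that work beside the transporters were followed in 4 lists. Of 22 other amino acid carriers, 11 could be tested between double KO and control lenses, with 5 higher, 6 lower and none passing either test. Of 19 genes of the Atf4 amino acid response, 16 were tested, with 9 higher and 7 lower and none passing either test. *Atf4* itself was at 148.1, 192.8 and 173.5 in control and 169.6, 182.1 and 171.1 in double KO lenses, and its target *Asns*, the asparagine synthetase, was at 16.7, 21.1 and 18.7 and at 17.7, 18.4 and 19.4. Libraries did not overlap for 2 of the 16 tested genes of this list, against 15.8% of all entries. *Ddit4*, an inhibitor of mTORC1, was at 26.9, 28.0 and 31.2 in control and 37.9, 41.7 and 49.3 in double KO lenses (log2 fold change 0.56, SE 0.11, unadjusted p = 0.00316, adjusted p = 0.215), and *Pycr1*, an enzyme of proline synthesis, was at 10.9, 11.4 and 11.8 and at 10.8, 9.1 and 8.8 (log2 fold change -0.23, adjusted p = 0.549). The median log2 fold changes of these lists were -0.04 and 0.04, beside 0.01 over all entries.

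Of 28 genes by which mTORC1 senses amino acids at the lysosome, 26 were tested, 14 higher and 12 lower (median 0.03). Between double KO and control lenses, 1 of these genes passed the adjusted test, against 0.361% of all entries. At an unadjusted p with 1.5-fold, 1 higher and 2 lower genes were counted, against 2.83%. Without overlap were *Fnip1* and *Sesn3* on the higher side and *Depdc5*, *Mtor*, *Rragc* and *Sesn1* on the lower side, against 15.8%. *Sesn3*, a sestrin that restrains mTORC1, rose from 96.7, 108.0 and 110.5 in control to 174.9, 186.7 and 196.6 in double KO lenses (log2 fold change 0.82, SE 0.07, adjusted p = 0.0211). This call was lost when any 1 of the 6 libraries was left out, with adjusted p between 0.0522 and 0.0817, and in 1 fit of all 9 libraries (adjusted p = 0.738). Compound KO lenses had 76.1, 165.3 and 168.7 for *Sesn3*. *Sesn1*, which acts in the same way, was at 57.0, 57.4 and 62.0 in control, 35.3, 39.5 and 38.4 in compound KO and 34.7, 36.4 and 40.7 in double KO lenses. Its Mafg-null libraries were all lower, but with adjusted p of 0.0516 (double KO, log2 fold change -0.65) and 0.227 (compound KO, -0.63, and -0.58 without replicate 1) it did not pass. *Depdc5*, a subunit of the complex that inhibits mTORC1 when amino acids are scarce, was at 3.0, 15.5 and 6.4 in control and 1.6, 1.3 and 2.4 in double KO lenses (log2 fold change -1.53, unadjusted p = 0.0285, adjusted p = 0.422). *Mtor* was at 169.5, 176.3 and 177.2 in control and 156.6, 147.4 and 155.8 in double KO lenses (limma adjusted p = 0.273).

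Of 11 genes that make and use glutathione from imported cystine, all were tested, 9 higher and 2 lower (median 0.22). Between double KO and control lenses, 1 of them passed the adjusted test, against 0.361% of all entries. At an unadjusted p with 1.5-fold, 2 were counted, both higher, against 2.83%. Without overlap were *Gclc*, *Gclm*, *Ggt5* and *Txnrd1*, all on the higher side, against 15.8% of all entries in either direction. *Gclm*, the modifier subunit of the enzyme for the first step, rose from 47.2, 49.0 and 50.3 in control to 98.2, 106.8 and 103.0 in double KO lenses (log2 fold change 1.06, SE 0.05, adjusted p = 0.00230). In 1 fit of all 9 libraries its adjusted p was 0.160. Compound KO lenses had 48.6, 65.4 and 88.1. *Slc7a11* thus had a log2 fold change of 0.30 beside 1.06 for *Gclm* and 0.17 for the catalytic subunit *Gclc* (adjusted p = 0.463), in the same double KO libraries. *Ggt5*, which splits glutathione outside cells, was near 0 with 0.2, 0.0 and 0.0 in control and 1.7, 1.3 and 1.1 in double KO lenses (adjusted p = 0.0638).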

How the data were processed

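RNA of pooled E16.5 lenses had been sequenced as strand-specific paired-end reads. Per the labels and the study's methods, the authors trimmed reads with Trimmomatic, aligned them to mm39 with HISAT2, counted transcripts with StringTie, used edgeR and dropped entries of low CPM, and versions and the role of Cufflinks, also named, are not given in the sources used here. The deposited signal is CPM that the authors had multiplied by 1 factor per library and rounded to 1 decimal, as judged from library totals of 728036 to 1131184 with a geometric mean of 1000012. Counts and depth cannot be recovered from them, so precision is the spread between libraries, and changes of low genes are understated on the log scale used.

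Libraries were grouped by labelled genotype. For each of 3 pairs of groups, limma 3.58.1 in R 4.3.3 was fitted with an intensity trend to log2 of the value plus 1, over all entries with a symbol that reached a value of 1 in 2 or more of the 6 libraries. Two-sided p-values were adjusted by Benjamini-Hochberg over all entries tested. Calls needed an adjusted p of at most 0.05 and 1.5-fold, and the same fit was also counted at an unadjusted p, since the study states no adjustment. An exact permutation test of 3 against 3 libraries cannot go below a two-sided p of 0.1. The script was tested on simulated data. Replicate numbers were not used as pairs, since same-number libraries correlated by -0.106 to 0.216 after removal of group means.

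The members, the pathway and marker lists and the tests were chosen with earlier results of these data known. Named were the exchanger chains *Slc7a11* and *Slc3a2*, the highest member of each family, members past either count, up to 5 members per direction without overlap between double KO and control libraries, and members spanning at least 4-fold within a genotype. A few others were named after their values were seen (*Slc36a1*, *Slc38a1*, *Slc38a3*, *Slc38a6*, *Slc38a9*, *Slc38a10*, *Slc43a3*, *Slc6a8*, *Slc6a15*, *Slc7a2*, *Slc7a4*, *Slc7a6*, *Slc7a8*, *Ddit4*, *Pycr1*, *Fnip1*, *Mtor*, *Rragc*). Gene positions and transcript lengths are from GENCODE vM39 (GRCm39), where all 37 members matched. 1 member is counted but not reported here by name. Alternatives were upper quartile scaling, equal totals, no filter, a minimum of 1 in every library, the replicate number as a block, 1 fit of all 9 libraries, a pseudocount of 0.1, entries with one symbol summed, and each library left out.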

Additional observations from a re-analysis of the deposited data

Results flagged for a closer look

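*Slc6a4*, the serotonin carrier, lay outside the comparisons because it missed the minimum value, yet it reached 3.3 in compound KO replicate 1, above the control maximum of 0.5. The other 5 Mafg-null libraries were at 0.5, 0.2, 0.3, 0.0 and 0.1. That library also had the highest neural retina marker sum, whose part in this value was not tested.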

How the results depend on the processing

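Over 47 log2 fold changes given above and their 655 recomputed values, 1 changed sign (*Slc3a2* between compound KO and control lenses, from -0.617 without compound KO replicate 3 to 0.0921 without compound KO replicate 1). Another 10 lost a call, 8 for *Sesn3* and 2 for *Gclm*, including both genes with the replicate number as a block (adjusted p = 0.0827 and 0.0665), and 4 gained one (*Sesn1* and *Slc7a7*). Leaving out each library in turn gave 0 to 1 called members between double KO and control lenses, and at an unadjusted p 0 to 1 there (*Slc7a7*, *Slc7a4* or *Slc1a5*), 2 to 8 between compound KO and control lenses, and 0 to 5 for double KO against compound KO lenses. The share of all entries moved as well, from 2.68% to 11.4% and from 1.77% to 7.98% in the last 2 comparisons, where the counts of 8 and 5 without compound KO replicate 3 go with the highest shares. In 1 fit of all 9 libraries the last count was 5 (4.4% of all entries). With the replicate number as a block it was also 5 (5.17%), and the block gave 0 and 8 (6.57%) for the other 2 comparisons. Over all entries, calls between double KO and control lenses numbered 51, against 21 in the 9-library fit, 10 with the block and 22 to 47 with a library left out. Equal totals shifted the median log2 fold change of all entries to 0.24 (compound KO against control) and to -0.17 (double KO against compound KO). Equal totals gave 748 higher and 91 lower entries at an unadjusted p between compound KO and control lenses, against 547 and 219. For double KO against compound KO lenses the split was 67 and 332, against 123 and 317, and between double KO and control lenses 281 and 137, against 225 and 175. Depth is unknown, so values under about 1 are the least certain.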

Other observations

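Between compound KO and control lenses, 3 genes of the lists around the transporters passed the unadjusted test with 1.5-fold, against 5.34% of all entries. The 4 lists held 12, 16, 26 and 10 tested genes here, so this count is near the background. *Phgdh*, the enzyme for the first step of serine synthesis, was at 139.3, 163.6 and 141.6 in control, 73.0, 101.9 and 123.8 in compound KO and 138.5, 160.5 and 102.8 in double KO lenses (log2 fold change -0.60, adjusted p = 0.481). *Txnrd1*, a thioredoxin reductase that can also reduce cystine, was at 53.1, 49.2 and 51.6 in control, 97.7, 70.8 and 68.3 in compound KO and 69.8, 61.7 and 61.7 in double KO lenses (log2 fold change 0.59, adjusted p = 0.481). Its Mafg-null libraries were all above the controls. The other gene was *Sesn1*, described above. Without compound KO replicate 1 the log2 fold changes were -0.39, 0.43 and -0.58 for *Phgdh*, *Txnrd1* and *Sesn1*, all under 1.5-fold.

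Between double KO and compound KO lenses, *Gclm* (log2 fold change 0.64) and the mitochondrial aspartate and glutamate carrier *Slc25a13* (0.99) were higher, and the aromatic amino acid carrier *Slc16a10* (-0.97), *Depdc5* (-1.47) and *Wdr24* (-0.88) lower, at an unadjusted p with 1.5-fold, all with an adjusted p of 0.665. The background was 3.06% of all entries, and the 4 lists held 12, 17, 26 and 11 tested genes in this comparison. Without compound KO replicate 1 the unadjusted p of *Slc16a10*, *Depdc5* and *Wdr24* was 0.0618, 0.0554 and 0.0614, and *Gclm* was at 0.43, under 1.5-fold. *Slc25a13* was still counted there, at 0.76 (limma, unadjusted p = 0.0362, adjusted p = 0.830). *Slc25a13* was at 0.3 in control replicate 1 and at 20.1 and 18.6 in the other 2 control libraries, against 18.9, 17.6 and 16.6 in double KO and 5.9, 13.6 and 7.3 in compound KO lenses.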
